A study of Mus musculus with 9 samples.

Results

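The genes described here are the subunits of the proteasome, together with Fbxo32 and Trim63, the muscle ubiquitin ligases known as atrogin-1 and MuRF1. They were chosen by name: every protein-coding row of the count table whose symbol starts with Psm, a letter from a to f and a digit, plus the ligases. The rule found 47 of the 22831 genes in the table, and 45 of them had enough counts to be tested. In the cell, ubiquitin is passed along a chain of enzymes to a ligase, which attaches it to a chosen protein. The regulatory particle of the proteasome binds the ubiquitin chain, removes it, unfolds the protein with a ring of ATPases and threads it into the core particle. The core is a barrel of alpha rings, which gate the entrance, and beta rings, which hold the proteolytic sites. In skeletal muscle this route degrades much of the contractile apparatus, and Fbxo32 and Trim63 are the ligases best known for their rise when muscle wastes.

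Among the 47 genes, 17 encode core subunits: 7 of the alpha ring, 7 of the constitutive beta ring and 3 inducible or tissue-restricted beta subunits. Another 20 belong to the regulatory particle, 6 of them ATPases (Psmc1 to Psmc6) and 14 non-ATPase members (Psmd genes, of which Psmd5, Psmd9 and Psmd10 are assembly chaperones). A further 6 encode activators and an inhibitor of the core, and 2 are the ligases. The name rule also caught 2 genes that are no subunits, Psmc3ip, a meiotic recombination factor, and Psme3ip1, a binding partner of an activator. Psmb8 and Psma8 are not analysed here.

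The cells were C2C12, an established mouse myoblast line of wild-type genotype, so all groups descend from a single line. Cells of all 9 libraries were differentiated for 5 to 7 days in medium with 2% horse serum, in which these cells fuse into myotubes. The first of 3 groups received 200 µM palmitic acid, a saturated fatty acid, with 1000 µM carnitine, the carrier of fatty acids into mitochondria. The second received 200 µM palmitic acid, and the control received neither. For both treated groups the labels give a duration of 48 in a unit that cannot be read. Each group held 3 libraries of stranded mRNA sequencing. The labels do not say whether the libraries of a group came from separate cultures, so p-values measure the spread between these libraries, which may be technical.

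Counts assigned to genes came to 2449933 to 3085957 per library with palmitic acid + carnitine, 3326017 to 5135035 with palmitic acid and 2309829 to 3309049 in control. Of the 14 myotube markers all were tested, and their summed level, in library-size-scaled counts with TMM factors (CPM), was 11737 to 12884 with palmitic acid + carnitine, 14982 to 15319 with palmitic acid and 10567 to 13883 in control. The median log2 fold change of these markers was 0.29 for palmitic acid over control and -0.46 for palmitic acid + carnitine over palmitic acid. The 4 fibroblast markers measured, of which Col1a1 and Col3a1 are also made by C2C12 cells, summed to 4949 to 5883, 6123 to 7201 and 4176 to 6009 CPM in the same groups. Satellite cell markers (4 of 5 tested, Pax7 too low) summed to 103 to 119, 111 to 146 and 92.2 to 105 CPM, and the 4 proliferation markers to 83.9 to 115, 75.5 to 88.3 and 74.7 to 93.4 CPM. The 3 macrophage markers in the table were at or below 3.88 CPM in sum, and the adipocyte marker Cidec was at 0 in every treated library. The part of these marker differences in the members' results was not tested. The libraries also differed in how counts fell on the strands of the genome. The ratio of counts at protein-coding genes with no gene on the opposite strand to counts at noncoding genes lying opposite a protein-coding gene was 0.831, 0.653 and 0.701 with palmitic acid + carnitine, 3.48, 1.21 and 1.22 with palmitic acid and 0.685, 0.633 and 1.18 in control. Palmitic acid replicate 1 and control replicate 3 stood apart from their groups in this ratio. No member was called with all 9 libraries and a filter on low counts. Values without these 2 libraries are given for some genes and class medians, and genes printed without such values may have moved as much. All 3 palmitic acid libraries were above every other library in this ratio, with control replicate 3 close behind. Fits with the ratio as a covariate therefore cannot fully separate it from the treatment. Genes with no opposite-strand gene, over the whole table, had a median log2 fold change of 0.27 for palmitic acid over control and -0.34 for palmitic acid + carnitine over palmitic acid. Protein-coding genes with an opposite-strand gene had medians of -0.05 and 0.01. Those medians, beside the medians of 0.06 and -0.10 over all 12548 genes tested, are the background for members without and with an opposite-strand gene.

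On the length-scaled scale (FPKM, as deposited), most subunits were abundant and the ligases were low. Psmc3 was the highest member at a mean of 220.1 FPKM over the 9 libraries, followed by Psmc1 at 43.9 FPKM and Psmd2 at 41.1 FPKM. Among the 14 constitutive core subunits the mean FPKM ran upward from 2.99 for Psma3 to 31.3 for Psmb4. The assembled core holds its ring subunits in equal number, while these transcripts did not stand at equal levels. Fbxo32 averaged 2.23 FPKM and Trim63 2.15 FPKM, below all 14 constitutive core subunits. The inducible subunit Psmb9 averaged 0.561 FPKM, and the thymus subunit Psmb11 had 3 counts, all in palmitic acid replicate 1.

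**Figure D1:**
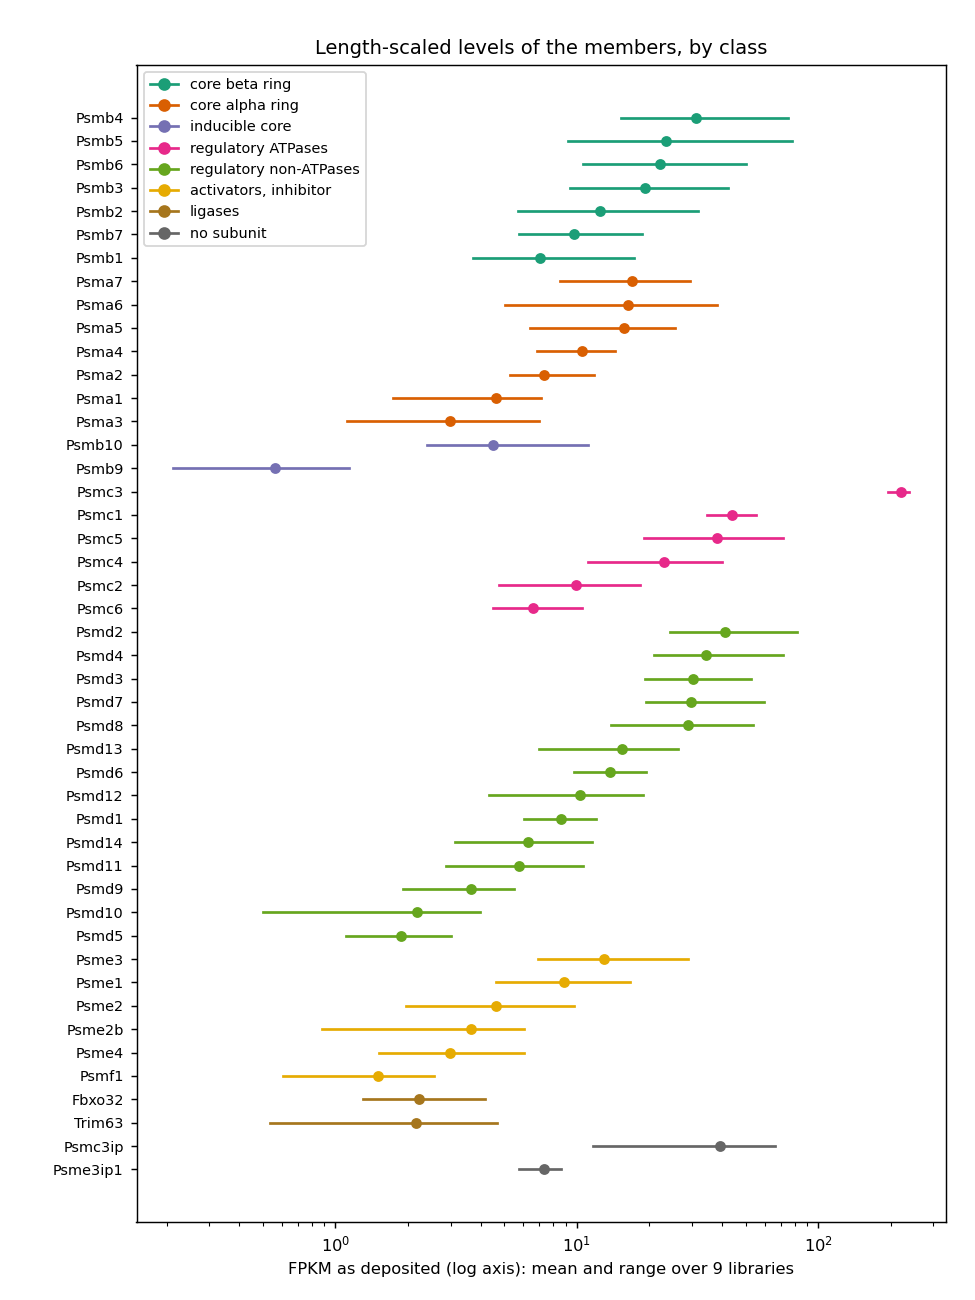
Deposited FPKM of the members on a log axis, grouped by class: each point is the mean over 9 libraries and each line runs from the lowest to the highest library. Psmc3 stands far to the right at 220.1 FPKM, and Fbxo32 and Trim63 lie near 2 FPKM. Psmb11, with 3 counts in all, is not drawn.

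No member passed the adjusted threshold of 0.05 in any comparison with edgeR's quasi-likelihood test, and neither did any of the 12548 genes tested (0% called in each comparison). At an unadjusted p under 0.05, palmitic acid against control gave 6 of 45 members, 5 higher and 1 lower, beside 19.5% of all genes (5.67% higher and 13.9% lower). Palmitic acid + carnitine against palmitic acid gave 10 of 45 members, 1 higher and 9 lower, beside 24.3% of all genes (15.9% higher and 8.34% lower). Palmitic acid + carnitine against control gave 2 of 45, Psmb2 and Psmd11, both lower, beside 2.76% of all genes (0.877% higher and 1.88% lower). DESeq2 called 0 members in each comparison, beside 3.78%, 6.51% and 0% of all genes in the same order. In the second comparison it gave no adjusted p for 16 of the 45 members, among them Psmb2 and Psmb5, nor for 6812 of the 12548 genes, so only 29 members could be called there. With limma on log2(FPKM + 1) 0 members were called, beside 0%, 0.00797% and 0%. Without a filter on low counts edgeR called 2 members (Psmb5 and Psmc3ip), 3 members (these and Psmb2) and 0 members, beside 4.90%, 5.98% and 0.0219% of all genes. Without control replicate 3 it called 1, 0 and 0, beside 5.99%, 0.0468% and 0%. Without that library and palmitic acid replicate 1 together it called 6, 2 and 0, beside 19.2%, 13.6% and 0.0729%. The first and the second comparison share the palmitic acid libraries, so their values for a gene are not independent.

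For palmitic acid against control, all 3 palmitic acid libraries were above all controls for 6 members (Psmb1, Psmb4, Psmb7, Psmc4, Psmd2 and Psmd4), beside 11.7% of all genes, and below them for 2 (Psmc3 and Psmc3ip), beside 10.9%. For palmitic acid + carnitine against palmitic acid, 13 members were lower in all 3 carnitine libraries, beside 18.3% of all genes, and 2 were higher (again Psmc3 and Psmc3ip), beside 20.0%. Of the 30 tested members with no opposite-strand gene, 5 were higher without overlap in the first comparison and 11 lower in the second. Of all 6098 tested genes with none, 1020 and 1581 were. For palmitic acid + carnitine against control, Psmb2, Psmd2 and Psmd11 were lower without overlap, beside 4.84% of all genes, and 0 members were higher, beside 3.69%.

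The median log2 fold change of the 45 tested members was 0.27 for palmitic acid over control, with 34 members above 0, and -0.36 for palmitic acid + carnitine over palmitic acid, with 37 below 0. It was -0.10 for palmitic acid + carnitine over control, with 29 below 0. These medians lie close to those of all genes with no opposite-strand gene (0.27, -0.34 and -0.06), though 15 of the 45 members have an opposite-strand gene. The medians of those 15 were 0.23, -0.33 and -0.11. Over all protein-coding genes with an opposite-strand gene they were -0.05, 0.01 and -0.02. The difference between these 2 sets of medians was not tested. For palmitic acid over control the core median was 0.35 (14 of 15 tested members above 0) and that of the regulatory particle 0.22 (13 of 20 above 0). For palmitic acid + carnitine over palmitic acid the core median was -0.44 (15 of 15 below 0) and that of the regulatory particle -0.33 (15 of 20 below 0). Of the 6098 tested genes with no opposite-strand gene, 4448 were above 0 for palmitic acid over control and 4679 below 0 for palmitic acid + carnitine over palmitic acid. Of all 12548 genes tested these were 6670 and 6977. The regulatory median for palmitic acid over control was 0.11 without palmitic acid replicate 1 and 0.04 without control replicate 2. Within the core the beta ring medians were 0.65 and -0.73, against 0.25 and -0.34 for the alpha ring. For palmitic acid over control the beta ring median was 0.43 without palmitic acid replicate 1, and that of the alpha ring was 0.17 without it and 0.08 without control replicate 2. With TMM factors taken from genes with no opposite-strand gene, a setting chosen after seeing the data, the median of all genes moved to -0.23 and 0.23. The core medians were then 0.06 and -0.10, those of the regulatory particle -0.06 and 0.0009, those of the alpha ring -0.05 and -0.02 and those of the beta ring 0.35 and -0.39.

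**Figure D2:**
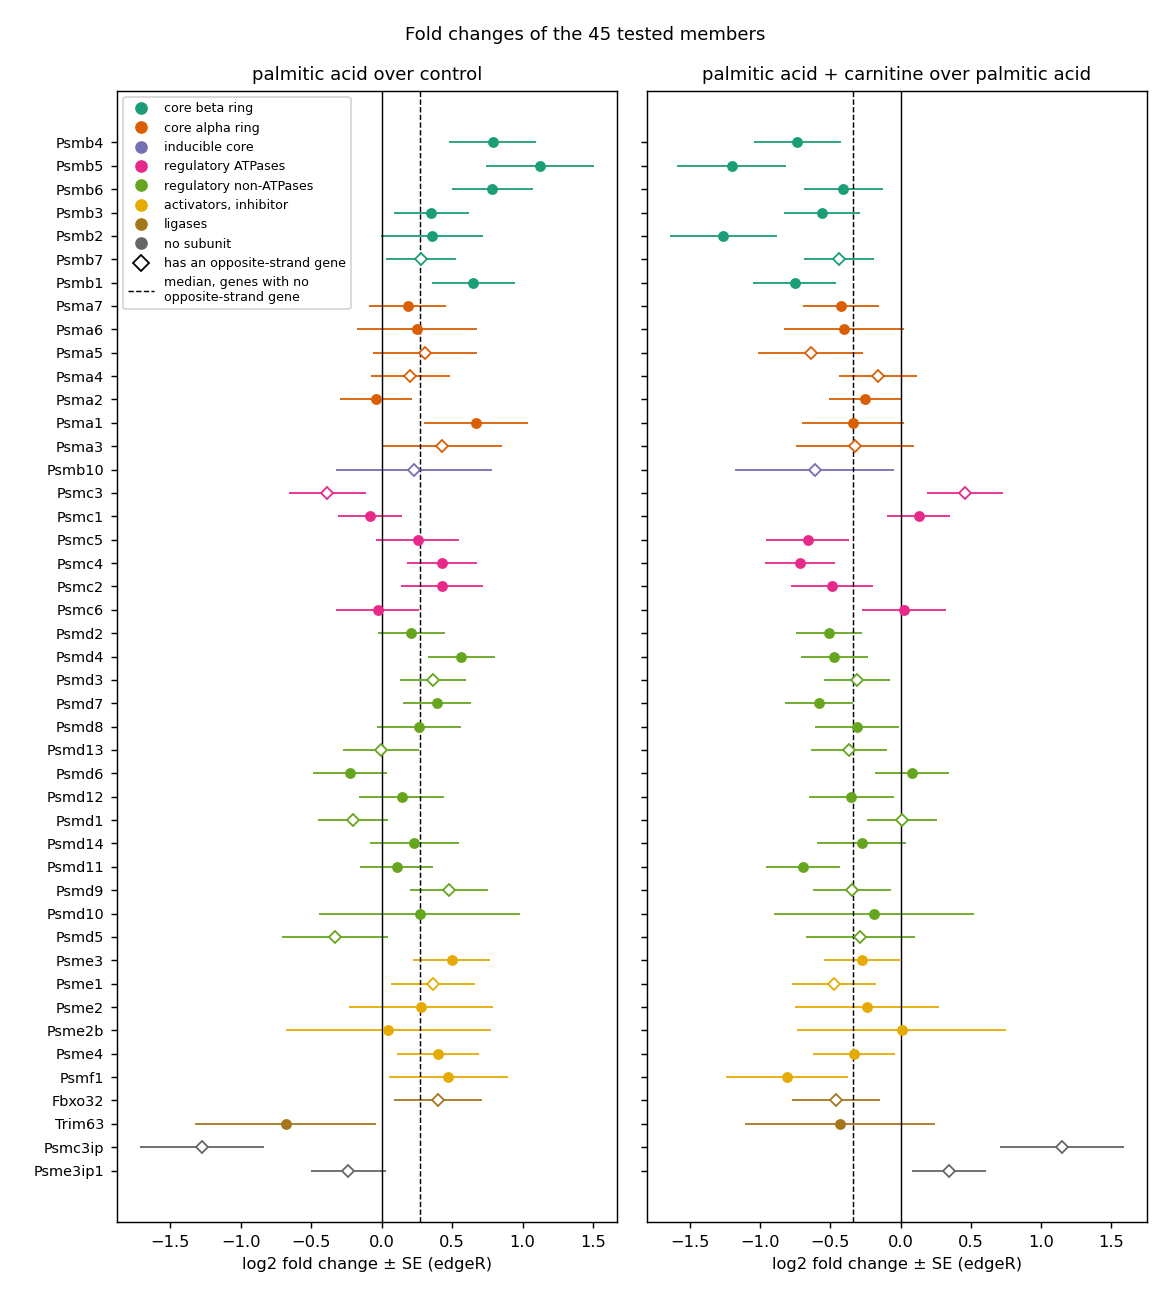
Log2 fold change with its standard error (edgeR) for the 45 tested members, in rows grouped by class: palmitic acid over control on the left, palmitic acid + carnitine over palmitic acid on the right. Open diamonds mark members with an opposite-strand gene, and the dashed lines mark the medians of 0.27 and -0.34 over all genes with none. The beta ring genes lie right of 0 on the left and left of 0 on the right, and no member passed the adjusted threshold.

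The beta ring had the largest medians among the subunit classes in both comparisons with palmitic acid. Its 7 constitutive genes summed to 220.2, 159 and 199 CPM under palmitic acid + carnitine, 390.4, 263 and 268 CPM under palmitic acid and 167, 196 and 237 CPM in control. The means were 193 ± 31, 307 ± 72.1 and 199.9 ± 35.6 CPM (SD, n = 3 each). The palmitic acid libraries were the 3 highest, and palmitic acid replicate 1 was highest of all. All 7 genes had a log2 fold change above 0 for palmitic acid over control and below 0 for palmitic acid + carnitine over palmitic acid, while Psmb7 stood at -0.02 in the first comparison with TMM factors from genes with no opposite-strand gene, and with the strand ratio as a covariate Psmb3 stood at -0.10 in the first and Psmb6 at 0.15 in the second. At an unadjusted p under 0.05, 4 of the 7 were higher in the first comparison, beside 5.67% of all genes, and 4 of the 7 lower in the second, beside 8.34%, and 0 passed after adjustment. The genes under that p all lack an opposite-strand gene. Of the 6098 tested genes with none, 507 were higher in the first comparison and 764 lower in the second at the same p. At any p, 4448 of them were above 0 in the first and 4679 below 0 in the second.

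Psmb5 holds the chymotrypsin-like site, the main target of proteasome inhibitor drugs. Its level stood at 14.5, 13.7 and 11 CPM under palmitic acid + carnitine, at 46.6, 27.1 and 16 CPM under palmitic acid and at 9.33, 14.1 and 17.6 CPM in control myotubes. The carnitine libraries were all below the palmitic acid libraries, while palmitic acid replicate 3 fell inside the control range. Its log2 fold change was 1.12 ± 0.38 (SE) for palmitic acid over control (adjusted p = 0.172, edgeR quasi-likelihood test, Benjamini-Hochberg adjustment) and -1.20 ± 0.39 for palmitic acid + carnitine over palmitic acid (adjusted p = 0.133, same test). Without palmitic acid replicate 1 these values were 0.64 ± 0.38 and -0.72 ± 0.38. With the strand ratio as a covariate they were 0.27 ± 0.41 and -0.22 ± 0.44.

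Psmb6 holds the caspase-like site and Psmb7 the trypsin-like site. Psmb6 stood at 44.2, 30.2 and 39.1 CPM under palmitic acid + carnitine, at 62.1, 36.8 and 51.6 CPM under palmitic acid and at 22.6, 26.6 and 37.7 CPM in control myotubes. Palmitic acid replicate 2 lay inside the control range, and the carnitine libraries spread over both other groups. The difference on the log2 scale was 0.78 ± 0.29 for palmitic acid over control and -0.41 ± 0.28 for palmitic acid + carnitine over palmitic acid. With the strand ratio as a covariate the second value turned to 0.15 ± 0.32. Psmb7 stood at 34.5, 26.9 and 22.1 CPM under palmitic acid + carnitine, at 42.3, 32.1 and 38.7 CPM under palmitic acid and at 31.4, 31.7 and 30.3 CPM in control myotubes. Its palmitic acid libraries were just above the narrow control range, and its log2 fold change was 0.28 ± 0.25 for palmitic acid over control. Psmb7 shares exon sequence on the other strand with Nek6, which had 26347 counts over the 9 libraries against 1031 for Psmb7, and the part of such reads in its value was not tested.

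The other beta subunits carry no proteolytic site. Psmb2 had the smallest p of the class for carnitine, with 7.59, 8.97 and 7.64 CPM in the libraries with palmitic acid + carnitine, 25.4, 11.9 and 20.3 CPM in those with palmitic acid and 9.82, 21 and 14.4 CPM in the controls. All 3 carnitine libraries were below every library of the other groups. On the log2 scale the difference was -1.26 ± 0.38 for palmitic acid + carnitine over palmitic acid (adjusted p = 0.125, edgeR quasi-likelihood test, Benjamini-Hochberg adjustment) and -0.91 ± 0.39 for palmitic acid + carnitine over control. Psmb2 was a low gene, and the carnitine libraries held 22, 19 and 18 counts of it. Psmb4 stood at 46.3, 34.5 and 61.1 CPM under palmitic acid + carnitine, at 96.9, 72.8 and 66.2 CPM under palmitic acid and at 33.9, 36.9 and 65.1 CPM in control myotubes. The palmitic acid libraries were above all others, by a narrow margin over control replicate 3. The palmitic acid log2 fold change was 0.79 ± 0.31 for palmitic acid over control. Without control replicate 3 it was 1.16 ± 0.30 and passed the threshold (adjusted p = 0.0456, edgeR quasi-likelihood test, Benjamini-Hochberg adjustment), as did 5.99% of all genes in that fit. Psmb1 and Psmb3, named like Psmb4 after their values were seen, had log2 fold changes of 0.65 ± 0.29 and 0.35 ± 0.27 for palmitic acid over control, and -0.75 ± 0.29 and -0.56 ± 0.27 for palmitic acid + carnitine over palmitic acid. The Psmb3 values without palmitic acid replicate 1 were 0.14 ± 0.27 and -0.35 ± 0.27.

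Many proteasome genes are controlled by the transcription factor Nfe2l1, which binds antioxidant response elements in their promoters when proteasome capacity is short. The promoters of the catalytic subunits Psmb5 and Psmb6, from 250 bases before to 50 after the gene start (RefSeq, GRCm38.p6), are shown because each holds a copy of the element's core, TGACNNNGC, printed in capitals. The Psmb5 window is chr14:54617946-54618245 on the minus strand, with the match starting at position -47 from the gene start. The Psmb6 window is chr11:70525107-70525406 on the plus strand, with the match at position -9. Both sequences read 5′ to 3′ toward the gene.
Psmb5: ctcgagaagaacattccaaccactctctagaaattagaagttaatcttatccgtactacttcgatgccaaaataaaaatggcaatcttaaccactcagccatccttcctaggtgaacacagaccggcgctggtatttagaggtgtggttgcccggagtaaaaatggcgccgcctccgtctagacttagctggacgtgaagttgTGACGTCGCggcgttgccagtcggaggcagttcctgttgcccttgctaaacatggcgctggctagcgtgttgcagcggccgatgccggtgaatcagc
Psmb6: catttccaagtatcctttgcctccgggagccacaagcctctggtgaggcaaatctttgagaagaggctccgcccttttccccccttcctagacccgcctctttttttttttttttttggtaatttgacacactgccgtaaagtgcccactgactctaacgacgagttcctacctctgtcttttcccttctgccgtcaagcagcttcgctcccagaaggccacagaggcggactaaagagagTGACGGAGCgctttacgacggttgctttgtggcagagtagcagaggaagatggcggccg
The core was searched on both strands. It was found in 6 of the 40 members with a RefSeq window (15% of members), namely Psmb5, Psmb6, Psmc6, Psmd9, Psmd12 and Psme4, beside 12.4% of all 32851 promoter windows. The first share counts genes with a match in any window (the 40 members had 44) and the second counts windows, so they are not strictly alike. Among members with a match, Psmb5 had a log2 fold change of 1.12 for palmitic acid over control and Psmc6 -0.03. A match of these letters is a description of the sequence and no record of binding.

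The 7 alpha ring genes, which form the gate of the core, summed to 157, 150.2 and 131 CPM under palmitic acid + carnitine, 196, 201 and 169 CPM under palmitic acid and 176, 139 and 167 CPM in control. Palmitic acid replicates 1 and 2 were the highest libraries and replicate 3 fell within the control range. The carnitine sums overlapped the controls and lay below all palmitic acid sums. Psma1 had the smallest p of the ring for palmitic acid over control, with 13.8, 10.4 and 14.9 CPM in the libraries with palmitic acid + carnitine, 13.9, 16.3 and 19.5 CPM in those with palmitic acid and 9.33, 6.00 and 15.3 CPM in the controls and a log2 fold change of 0.67 ± 0.37, which was 1.11 ± 0.38 without control replicate 3. Psma5 had the smallest p for palmitic acid + carnitine over palmitic acid, with 18.6, 16.5 and 11.9 CPM with palmitic acid + carnitine, 22.3, 28.5 and 22.9 CPM with palmitic acid and 17.2, 9.86 and 31.4 CPM in control and a log2 fold change of -0.64 ± 0.38. Its carnitine libraries were below all palmitic acid libraries, while the controls ranged across both groups. Without control replicate 3 the Psma5 values were 0.87 ± 0.35 for palmitic acid over control and 0.23 ± 0.36 for palmitic acid + carnitine over control. Psma2 had the smallest p for palmitic acid + carnitine over control, at 23.5, 24.6 and 21.7 CPM with palmitic acid + carnitine, 28.6, 31.8 and 22.4 CPM with palmitic acid and 32.9, 29.6 and 23 CPM in control. Its groups overlapped, with a log2 fold change of -0.29 ± 0.26 in that comparison, and no alpha ring gene was under an unadjusted p of 0.05 in any comparison. Set against the alpha ring within each library, the summed beta ring CPM was 1.40, 1.06 and 1.51 times the alpha ring's under palmitic acid + carnitine, 2.00, 1.31 and 1.59 times under palmitic acid and 0.944, 1.41 and 1.42 times in control. These ratios overlapped between the groups, and palmitic acid replicate 1 was the highest.

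The inducible subunits replace catalytic subunits when cells meet interferon. Psmb10 stood at 8.28, 4.72 and 4.67 CPM under palmitic acid + carnitine, at 4.77, 4.98 and 18.1 CPM under palmitic acid and at 9.33, 5.57 and 8.36 CPM in control myotubes. Palmitic acid replicate 3 was far above the others of its group, and the remaining libraries overlapped. For palmitic acid over control its log2 fold change was 0.23 ± 0.55. Psmb10 lies inside the span of Gm16156, a noncoding gene on the opposite strand whose annotated exons do not overlap Psmb10. Gm16156 had 16363 counts over the 9 libraries against 224 for Psmb10. Psmb9 was too low to test, with 8, 4 and 11 counts with palmitic acid + carnitine, 4, 3 and 8 counts with palmitic acid and 7, 4 and 5 counts in control.

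The regulatory ATPases, which unfold the substrate, had smaller medians than the beta ring, at 0.11 for palmitic acid over control (3 of 6 above 0) and -0.23 for palmitic acid + carnitine over palmitic acid (3 of 6 below 0). Their sum was 905, 874 and 879 CPM under palmitic acid + carnitine, 615, 815 and 859 CPM under palmitic acid and 964, 806 and 849.9 CPM in control, and most of it was Psmc3. Psmc4 had the smallest p of the ATPases in the comparisons with palmitic acid, with 37.3, 27.9 and 46.3 CPM in the libraries with palmitic acid + carnitine, 57, 59.5 and 66.8 CPM in those with palmitic acid and 49.6, 38.1 and 48.1 CPM in the controls. All 3 palmitic acid libraries were above all libraries of the other groups. The difference was a log2 fold change of 0.43 ± 0.25 for palmitic acid over control and -0.72 ± 0.25 for palmitic acid + carnitine over palmitic acid (adjusted p = 0.141, edgeR quasi-likelihood test, Benjamini-Hochberg adjustment). Psmc4 has no opposite-strand gene, and with the strand ratio as a covariate the values were 0.45 ± 0.28 and -0.73 ± 0.30. Without palmitic acid replicate 1 and control replicate 3 together it passed the threshold for palmitic acid + carnitine over palmitic acid, at -0.77 ± 0.23 (adjusted p = 0.0284, edgeR quasi-likelihood test), as did 13.6% of all genes.

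Psmc5, with the smallest p of the ATPases for palmitic acid + carnitine over control, had 41.8, 32.6 and 43.3 CPM in the libraries with palmitic acid + carnitine, 66.1, 49 and 71.3 CPM in those with palmitic acid and 58.9, 30.9 and 66 CPM in the controls. The carnitine libraries were below all palmitic acid libraries and overlapped the controls, at a log2 fold change of -0.66 ± 0.30 over palmitic acid and -0.41 ± 0.30 over control. The 3 ATPases below 0 for palmitic acid over control were Psmc1 at -0.08 ± 0.22, Psmc6 at -0.03 ± 0.30 and Psmc3 at -0.38 ± 0.27. Without palmitic acid replicate 1 Psmc3 stood at -0.18 and Psmc1 at 0.01, without control replicate 3 Psmc6 stood at 0.22, and with the strand ratio as a covariate Psmc3 stood at 0.03. Psmc3 had 660.3, 665 and 645 CPM in the libraries with palmitic acid + carnitine, 336, 551 and 549 CPM in those with palmitic acid and 699, 612 and 562 CPM in the controls. The palmitic acid libraries were the 3 lowest, and palmitic acid replicate 1 was lowest of all. Psmc3 occupies chromosome 2, 90884354 to 90896714, on the plus strand, and Slc39a13, a zinc transporter gene, occupies 90892136 to 90900762 on the minus strand, in the table's coordinates (GRCm39, the mouse build named in the submitters' processing notes). Psmc3 held 16154 counts and Slc39a13 7034, and whether reads of either gene were counted on the other was not tested.

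The 14 non-ATPase genes include the ubiquitin receptors, the lid and the assembly chaperones. They summed to 736, 675 and 763 CPM under palmitic acid + carnitine, 1021, 889 and 894 CPM under palmitic acid and 795, 736 and 866 CPM in control. The palmitic acid sums were the 3 highest, and the carnitine sums overlapped the controls. Psmd4, a ubiquitin receptor, stood at 88.7, 77.4 and 81.5 CPM under palmitic acid + carnitine, at 133, 101 and 109 CPM under palmitic acid and at 68.8, 68.6 and 94.5 CPM in control myotubes. Its palmitic acid libraries were above all others, and its log2 fold change was 0.57 ± 0.24 for palmitic acid over control (adjusted p = 0.222, edgeR quasi-likelihood test, Benjamini-Hochberg adjustment). Without palmitic acid replicate 1 and control replicate 3 together it was 0.62 ± 0.20 and passed the threshold (adjusted p = 0.0269, same test), as did 19.2% of all genes. With the strand ratio as a covariate the Psmd4 value was 0.23 ± 0.22.

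Psmd11, a lid subunit whose amount sets how many complete proteasomes form in stem cells, had 21.4, 21.3 and 35.2 CPM in the libraries with palmitic acid + carnitine, 44.9, 41.8 and 39.3 CPM in those with palmitic acid and 36.8, 36 and 44.1 CPM in the controls. The carnitine libraries were the 3 lowest and the other groups overlapped. Relative to palmitic acid the log2 fold change was -0.70 ± 0.26 and relative to control -0.59 ± 0.26, both under an unadjusted p of 0.05 but not past the adjusted threshold. Psmd14, the enzyme that removes the ubiquitin chain, stood at 13.1, 15.1 and 19.5 CPM under palmitic acid + carnitine, at 21.6, 18.6 and 17.5 CPM under palmitic acid and at 19.2, 10.3 and 19.6 CPM in control myotubes. Its groups overlapped, with a log2 fold change of 0.23 ± 0.32 for palmitic acid over control. Psmd2, a large scaffold subunit, was lower in the carnitine libraries than in every other library, at 135, 114 and 145 CPM with palmitic acid + carnitine, 219.6, 167 and 173 CPM with palmitic acid and 158, 159 and 167 CPM in control. The chaperones Psmd5, Psmd9 and Psmd10 had log2 fold changes of -0.33 ± 0.38, 0.48 ± 0.28 and 0.27 ± 0.71 for palmitic acid over control.

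Core and regulatory particle were also compared within each library, where a factor that scales all counts cancels. The median log2 CPM of the core minus that of the regulatory particle was -1.20, -0.75 and -1.07 under palmitic acid + carnitine, -0.89, -0.78 and -1.36 under palmitic acid and -1.17, -0.98 and -1.12 in control. The groups overlapped, and the lowest value was a palmitic acid library. On the length-scaled scale, summed core FPKM divided by summed regulatory FPKM without Psmc3 was 0.560, 0.542 and 0.493 under palmitic acid + carnitine, 0.720, 0.611 and 0.560 under palmitic acid and 0.475, 0.532 and 0.551 in control. By this measure the palmitic acid libraries were above the controls, and palmitic acid replicate 3 was level with carnitine replicate 1 at 3 digits. Among members with no opposite-strand gene, palmitic acid replicate 3 fell below control replicate 2 in the core-to-regulatory ratio. The core sums of these libraries were 173.9 and 104.5 FPKM, and the regulatory sums 347.1 and 201.9 FPKM. Leaving Psmc3 out of the regulatory sum was decided after its level was seen. From the fold changes, the core median minus the regulatory median was 0.13 for palmitic acid over control, -0.11 for palmitic acid + carnitine over palmitic acid and -0.05 for palmitic acid + carnitine over control, with no test. Leaving out 1 library at a time gave 0.12 to 0.31, -0.31 to 0.0078 and -0.20 to 0.12 in the same order. The second of these passed 0 without palmitic acid + carnitine replicate 2. The third passed 0 without palmitic acid + carnitine replicate 3, control replicate 2 or control replicate 3. Only for palmitic acid over control did the difference keep its sign in every setting run.

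**Figure D3:**
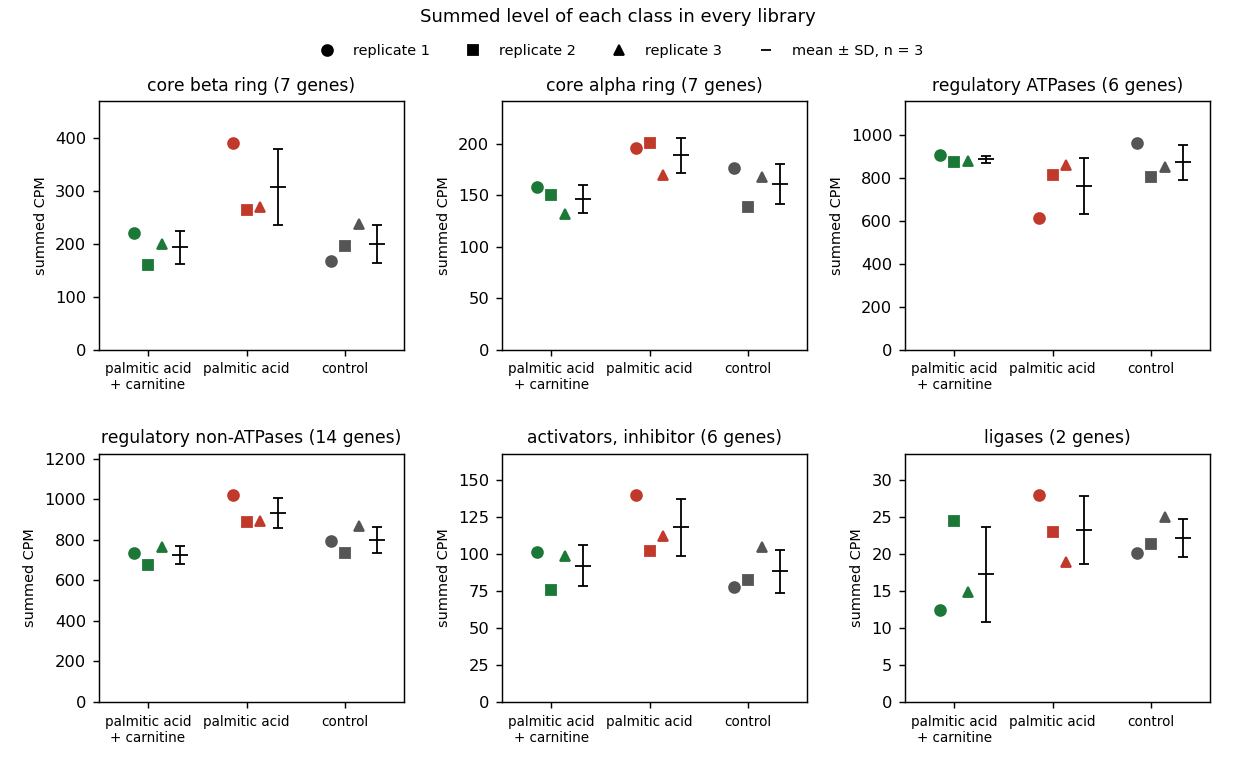
Summed CPM of each class in every library, with palmitic acid + carnitine, palmitic acid and control from left to right: markers show replicates and bars the mean ± SD of 3 libraries. The beta ring sums of the palmitic acid libraries (mean 307 ± 72.1 CPM) lie above all others, and the regulatory ATPase and ligase sums overlap between the groups.

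The activators open the gate of the core without the regulatory particle, and Psmf1 is an inhibitor of the core. Their 6 genes summed to 101, 76 and 98.9 CPM under palmitic acid + carnitine, 139.9, 102 and 112 CPM under palmitic acid and 77.6, 82.3 and 105 CPM in control. Palmitic acid replicate 2 lay below control replicate 3, so the groups overlapped, and all 6 genes had log2 fold changes above 0 for palmitic acid over control, though Psme2b was below 0 without palmitic acid replicate 1 (-0.04) and with TMM factors from genes with no opposite-strand gene (-0.20), and Psme2, Psme2b and Psme3 were below 0 with the strand ratio as a covariate. Psme4, a nuclear activator abundant in testis, stood at 24.2, 14.6 and 28.4 CPM under palmitic acid + carnitine, at 33.7, 23.5 and 27.5 CPM under palmitic acid and at 18.7, 24 and 21.6 CPM in control myotubes, with a log2 fold change of 0.40 ± 0.29 for palmitic acid over control. Psme3, the nuclear activator with the smallest p of the class in both comparisons with control, had 40.4, 32.6 and 34.4 CPM in the libraries with palmitic acid + carnitine, 56.3, 34.1 and 39.3 CPM in those with palmitic acid and 23.1, 30.9 and 37.7 CPM in the controls and a log2 fold change of 0.50 ± 0.27 for palmitic acid over control, which was 0.25 ± 0.28 without palmitic acid replicate 1. Psmf1 had 4.14, 8.50 and 8.49 CPM with palmitic acid + carnitine, 11, 15.2 and 10.6 CPM with palmitic acid and 8.84, 5.14 and 12.1 CPM in control. Its carnitine libraries were below the palmitic acid libraries and overlapped the controls, at a log2 fold change of -0.81 ± 0.43 over palmitic acid. Psme2 and Psme2b are near copies of each other, and reads they share may have been split or dropped in counting, so their values are uncertain.

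The atrophy ligases had log2 fold changes of opposite sign for palmitic acid over control, neither past the threshold. Fbxo32, which targets regulators of protein synthesis, stood at 9.67, 17 and 13.2 CPM under palmitic acid + carnitine, at 19.2, 19.4 and 15.8 CPM under palmitic acid and at 16.7, 12 and 12.7 CPM in control myotubes. Palmitic acid replicates 1 and 2 were above all controls, replicate 3 was inside their range, and the carnitine libraries spread over both other groups. Its log2 fold change was 0.40 ± 0.31 for palmitic acid over control (adjusted p = 0.469, edgeR quasi-likelihood test, Benjamini-Hochberg adjustment), -0.46 ± 0.31 for palmitic acid + carnitine over palmitic acid and -0.06 ± 0.32 for palmitic acid + carnitine over control. The last of these changed sign without palmitic acid + carnitine replicate 1 (0.16) or without control replicate 1 (0.11). Fbxo32 lies opposite Gm15943, a noncoding gene with 2449 counts against 475 for Fbxo32.

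Trim63, which targets myosin and other thick filament proteins, had 8, 16 and 4 counts with palmitic acid + carnitine, 68, 13 and 11 counts with palmitic acid and 7, 22 and 43 counts in control. On the scaled level it stood at 2.76, 7.56 and 1.70 CPM under palmitic acid + carnitine, at 8.78, 3.60 and 3.15 CPM under palmitic acid and at 3.44, 9.43 and 12.4 CPM in control myotubes. Control replicates 2 and 3 were the highest libraries, and the groups overlapped in every comparison. Its log2 fold change was -0.68 ± 0.64 for palmitic acid over control, -0.43 ± 0.68 for palmitic acid + carnitine over palmitic acid and -1.11 ± 0.68 for palmitic acid + carnitine over control (adjusted p of 0.554, 0.714 and 1, edgeR quasi-likelihood test). Without palmitic acid replicate 1 the first value was -1.33 ± 0.75 and the second 0.21 ± 0.76, and without control replicate 3 the first was -0.28 ± 0.76. The libraries held 4 to 68 counts of Trim63, and none of these differences was detectable at this depth.

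Both ligase genes are textbook targets of FoxO transcription factors. The Trim63 promoter (RefSeq, GRCm38.p6, chr4:134314870-134315169 on the plus strand) is shown because it was the only promoter among the 40 members with a window to hold the FoxO core GTAAACA. It lies on the minus strand of the window, starting at position -194 from the gene start, so the capitals show its reverse complement.
Trim63: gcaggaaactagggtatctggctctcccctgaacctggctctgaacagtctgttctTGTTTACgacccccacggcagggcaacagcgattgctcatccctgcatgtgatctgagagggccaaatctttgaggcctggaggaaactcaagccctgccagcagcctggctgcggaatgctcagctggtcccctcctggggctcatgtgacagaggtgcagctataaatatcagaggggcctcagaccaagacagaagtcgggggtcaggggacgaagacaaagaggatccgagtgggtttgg
That is 2.5% of the members, counted per gene, beside 3.65% of all 32851 windows, counted per window, searched on both strands. The match is a description of the sequence, and no statement about FoxO activity follows from it.

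**Figure D4:**
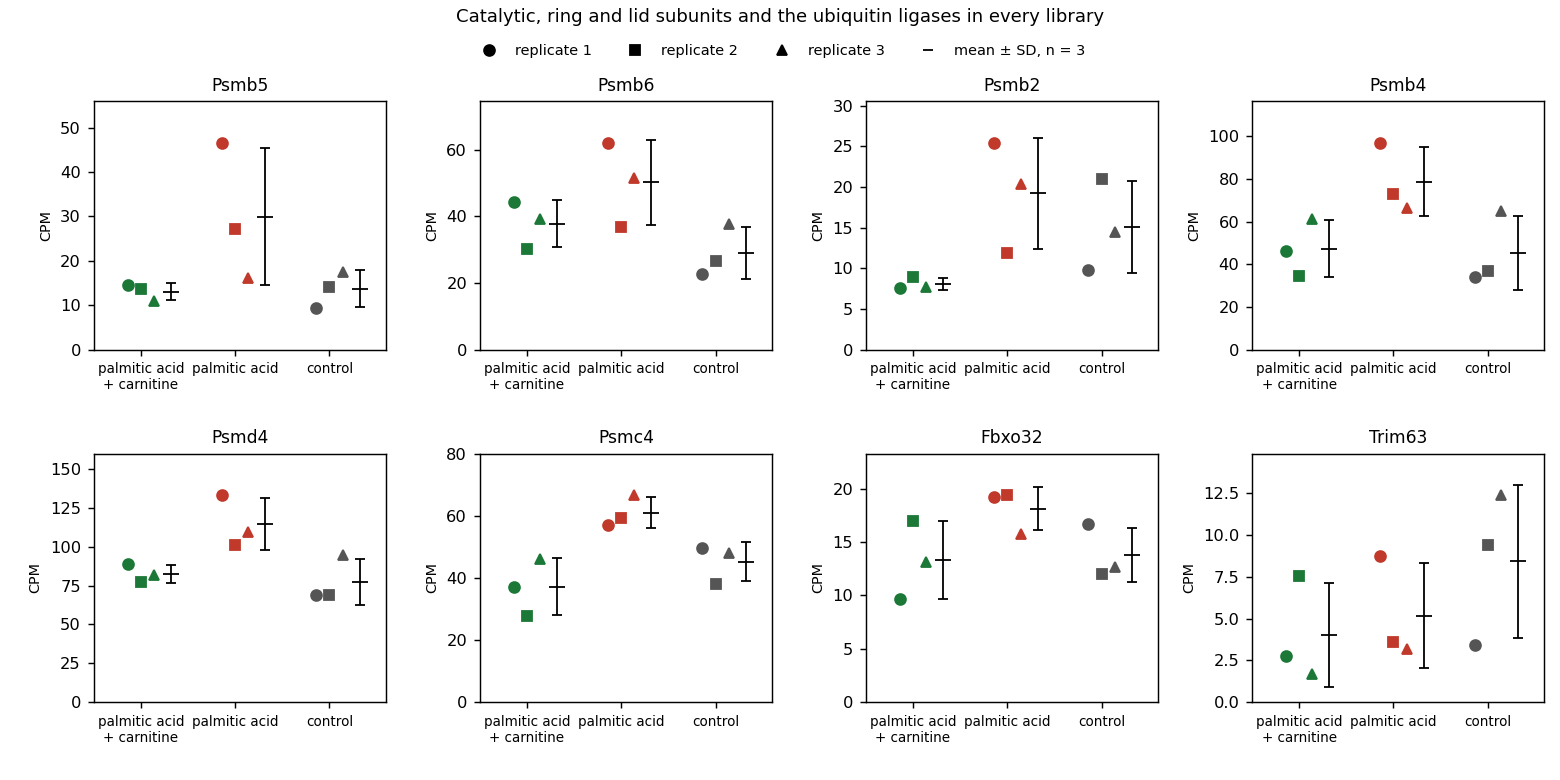
CPM of 8 members in every library, with palmitic acid + carnitine, palmitic acid and control from left to right: markers show replicates and bars the mean ± SD of 3 libraries. Psmb4, Psmd4 and Psmc4 are higher in each palmitic acid library than in any other, Psmb2 is lowest in the carnitine libraries, and Trim63 overlaps between all groups.

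Of the non-subunits caught by the name rule, Psmc3ip stood at 74.6, 103 and 91.3 CPM under palmitic acid + carnitine, at 14.1, 61.2 and 47 CPM under palmitic acid and at 91.4, 140.2 and 61.9 CPM in control myotubes. The palmitic acid libraries were the 3 lowest, and palmitic acid replicate 1 was lowest of all. Its log2 fold change was -1.27 ± 0.44 for palmitic acid over control and 1.15 ± 0.44 for palmitic acid + carnitine over palmitic acid, opposite in sign to the member medians. Psmc3ip lies opposite Mlx, whose counts were 31, 28 and 26 under palmitic acid + carnitine, 98, 52 and 40 under palmitic acid and 17, 14 and 21 in control. The Psmc3ip values without palmitic acid replicate 1 were -0.84 ± 0.31 and 0.72 ± 0.31, and without control replicate 3 the first was -1.52 ± 0.46. With the strand ratio as a covariate they were -0.06 ± 0.25 and -0.19 ± 0.27. Psme3ip1 had log2 fold changes of -0.24 ± 0.26 and 0.34 ± 0.26 in the same comparisons.

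Members with and without an opposite-strand gene were also summed apart. The 31 members with none summed to 1084, 909 and 1069 CPM under palmitic acid + carnitine, 1576, 1262 and 1323 CPM under palmitic acid and 1086, 994 and 1254 CPM in control. The 16 with an opposite-strand gene summed to 1157, 1192 and 1154 CPM, 855, 1126 and 1090.0 CPM and 1251, 1159 and 1095 CPM in the same groups. The first sum was highest and the second lowest in palmitic acid replicate 1, the library with the highest strand ratio. Control replicate 3, whose ratio was near that of palmitic acid replicates 2 and 3, also resembled them in both sums. When only genes with no opposite-strand gene were fitted, the median log2 fold change of the 30 tested members was 0.01 for palmitic acid over control and -0.06 for palmitic acid + carnitine over palmitic acid. In that fit 0 members were called, beside 1.10% and 1.11% of 5920 genes, and the 6 beta ring genes had medians of 0.43 and -0.41. With the strand ratio as a covariate in the fit of all genes the member medians were 0.03 and -0.13, and the beta ring medians 0.20 and -0.22. The ratio was highest in the palmitic acid libraries, so that fit cannot fully separate it from the treatment.

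**Figure D5:**
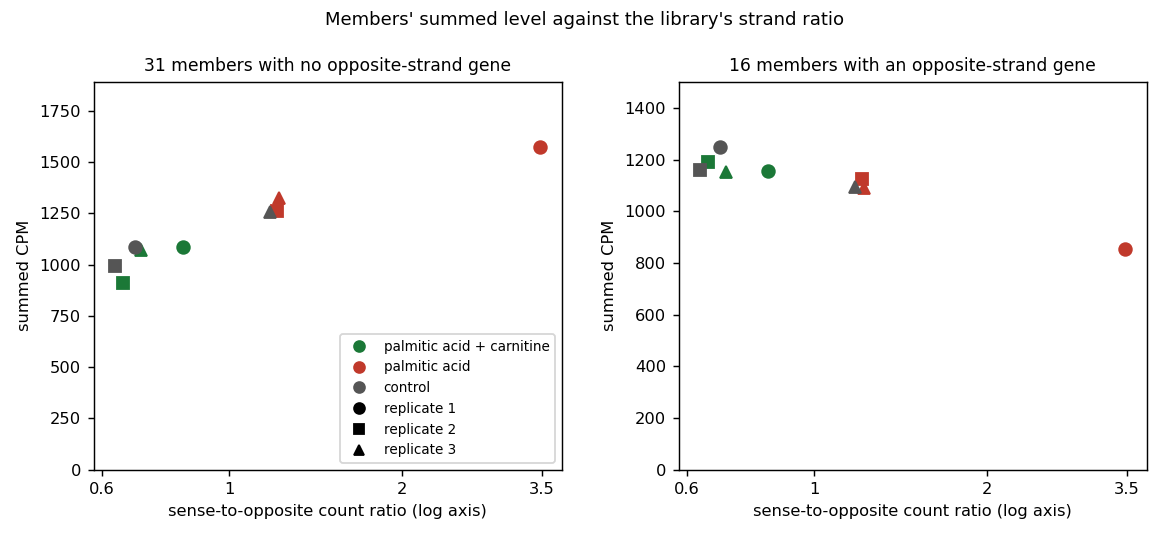
Summed CPM of the members in each library against the library's sense-to-opposite count ratio on a log axis: the 31 members with no opposite-strand gene on the left, the 16 with such a gene on the right. Colors give the group and marker shapes the replicate. Palmitic acid replicate 1, at a ratio of 3.48, is highest on the left and lowest on the right, and control replicate 3 lies beside palmitic acid replicates 2 and 3. Psmc3 alone makes up a large part of the sum on the right.

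The rest of the ubiquitin route was read from 5 lists of genes outside the name rule, and 0 of their tested genes passed the adjusted threshold with edgeR in any comparison. At an unadjusted p under 0.05, for palmitic acid over control and for palmitic acid + carnitine over palmitic acid, there were 2 and 4 other proteasome genes, 0 and 2 ubiquitin enzymes, 3 and 2 other ligases, 0 and 0 transcription factors and 3 and 4 shuttles. Over all genes the shares at that p were 19.5% and 24.3%, so counts of this size do not set the lists apart. For the signs given below, the background is the 6098 tested genes with no opposite-strand gene. Of these, 4448 were above 0 for palmitic acid over control and 4679 below 0 for palmitic acid + carnitine over palmitic acid. Of all 12548 genes tested, 6670 and 6977 were. Of 12 other proteasome genes, 8 had log2 fold changes above 0 for palmitic acid over control and 7 below 0 for palmitic acid + carnitine over palmitic acid, with medians of 0.06 and -0.24. Pomp, the chaperone that matures the beta ring, had the smallest p for carnitine, with 11.4, 9.44 and 11.5 CPM in the libraries with palmitic acid + carnitine, 25.2, 24.9 and 24.4 CPM in those with palmitic acid and 14.2, 24.4 and 29.1 CPM in the controls. The carnitine libraries were the 3 lowest. Its log2 fold change was -1.20 ± 0.31 for palmitic acid + carnitine over palmitic acid and -1.08 ± 0.31 over control (adjusted p of 0.125 and 1, edgeR quasi-likelihood test, Benjamini-Hochberg adjustment). Usp14, a ubiquitin-trimming enzyme of the regulatory particle, had the smallest p for palmitic acid over control at -1.31 ± 0.41, and it lies opposite Thoc1.

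Of 16 tested ubiquitin genes and activating or conjugating enzymes, 12 were above 0 for palmitic acid over control and 14 below 0 for palmitic acid + carnitine over palmitic acid, with medians of 0.26 and -0.28. Uba1, the main ubiquitin-activating enzyme, had the smallest p in both comparisons, with 143, 109.6 and 113 CPM in the libraries with palmitic acid + carnitine, 229, 186 and 207 CPM in those with palmitic acid and 147, 147 and 165 CPM in the controls. Its palmitic acid libraries were the 3 highest and its carnitine libraries the 3 lowest. These amounted to log2 fold changes of 0.44 ± 0.23 for palmitic acid over control and -0.76 ± 0.24 for palmitic acid + carnitine over palmitic acid. Ube2j1, a conjugating enzyme of the endoplasmic reticulum, had the smallest p for palmitic acid + carnitine over control, at 0.56 ± 0.33. Of 19 other muscle ligases, 14 were above 0 and 14 below 0 in the comparisons with palmitic acid, with medians of 0.32 and -0.40. Fbxl22, a sarcomere ligase subunit, had the smallest p in both, at -1.54 ± 0.38 and 1.27 ± 0.38, opposite in sign to the medians, and it lies opposite Herc1. Traf6 held 0, 0 and 5 counts with palmitic acid + carnitine, 31, 12 and 7 counts with palmitic acid and 12, 10 and 3 counts in control.

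Among 9 tested FoxO and proteasome transcription factors and their processing factors, 7 were above 0 for palmitic acid over control and 9 below 0 for palmitic acid + carnitine over palmitic acid, with medians of 0.24 and -0.31. Foxo4 had the smallest p for palmitic acid over control at 0.52 ± 0.27, Nfe2l2, the oxidative stress factor, for palmitic acid + carnitine over palmitic acid at -0.37 ± 0.26, and Nr3c1, the glucocorticoid receptor, for palmitic acid + carnitine over control at -0.49 ± 0.40. Of 12 ubiquitin shuttles and unfoldases, 10 were above 0 and 10 below 0 in the comparisons with palmitic acid, with medians of 0.34 and -0.36. Ubqln4, a shuttle to the proteasome, had 38.3, 24.6 and 31 CPM in the libraries with palmitic acid + carnitine, 47.4, 50.4 and 37.5 CPM in those with palmitic acid and 21.1, 21.9 and 31.7 CPM in the controls. Its palmitic acid libraries were above all controls, and carnitine replicate 1 was above palmitic acid replicate 3. Its palmitic acid log2 fold change over control was 0.85 ± 0.27. Vcp, the unfoldase that extracts ubiquitinated proteins, had the smallest p of the list for palmitic acid + carnitine over palmitic acid at -0.62 ± 0.24, and Faf1, a Vcp cofactor, for palmitic acid + carnitine over control at -0.75 ± 0.34.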

How the data were processed

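Stranded mRNA libraries of C2C12 myotubes (9, in 3 groups set by the treatment label) were the samples. The authors deposited raw counts per gene and FPKM, per the file headers. Per the submitters' processing notes, the tools include HTSeq 0.13.5, edgeR, Bowtie2 2.4.2, HISAT2 2.2.0 and Trim Galore 0.6.4, with no role or order stated, and GRCm39 is the mouse build among those listed; the strand setting and multi-mapping rules of the counting are not given in the sources used here. Of 22831 genes, 174 had no symbol and 0 were mitochondrial.

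Counts were tested with edgeR 4.0.16 (R 4.3.3; TMM, filterByExpr with minimum count 10 and minimum total 15, glmQLFTest, two-sided) in 1 fit of 9 libraries with group as the factor, Benjamini-Hochberg adjustment over 12548 genes and a call at adjusted p under 0.05. CPM use TMM factors. DESeq2 1.42.0 and limma 3.58.1 on log2(FPKM + 1), whose folds understate changes of low genes, were alternatives, with other filters, left-out libraries, a replicate block and strand-related fits. Opposite-strand genes came from GENCODE M21 (GRCm38), joined by gene ID for 22506 genes, and promoters from RefSeq (GRCm38.p6).

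The members and lists were chosen with earlier results of these data known. Named genes were the ligases, the catalytic subunits and their inducible counterparts, Psmd4, Psmd11, Psmd14, Psme4, Psmf1, and the gene with the smallest p per class or list and comparison; others were named after their values were seen. Within groups no libraries were alike within counting noise (chi-square per degree of freedom of at least 3.62).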

Additional observations from a re-analysis of the deposited data

How the results depend on the processing

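Only 3 libraries a group, low counts per library and a strand ratio that differed between libraries limit these comparisons. Correlations between same-numbered libraries ran from -0.39 to 0.26. With 3 libraries a group, they cannot tell whether the replicate numbers in the titles pair the samples. With a replicate block 0 members were called. The member medians were then 0.27 for palmitic acid over control, -0.38 for palmitic acid + carnitine over palmitic acid and -0.10 for palmitic acid + carnitine over control. Without a filter on low counts 2 members were called for palmitic acid over control (Psmb5 and Psmc3ip), beside 4.90% of all genes. For palmitic acid + carnitine over palmitic acid 3 were called (these and Psmb2), beside 5.98%. Without palmitic acid replicate 1 and control replicate 3 together the calls were 6 (Psmb4, Psmb6, Psmc2, Psmc3ip, Psmd3 and Psmd4), beside 19.2% of all genes, and 2 (Psmc3ip and Psmc4), beside 13.6%. The member median for palmitic acid + carnitine over control was then 0.0021. Leaving out 1 library gave 0 to 1 calls for palmitic acid over control, the 1 being Psmb4 without control replicate 3, beside 5.99% of all genes. Member medians then ran from 0.17 (without palmitic acid replicate 1) to 0.40 (without control replicate 3) for palmitic acid over control, from -0.45 to -0.30 for palmitic acid + carnitine over palmitic acid, and from -0.12 to 0.0033 for palmitic acid + carnitine over control. The Fbxo32 value for palmitic acid + carnitine over control ranged from -0.28 to 0.16 and the Trim63 value for palmitic acid + carnitine over palmitic acid from -1.26 to 0.21. Trim63 in that comparison was also at 0.21 without both libraries and at 0.77 with the strand ratio as a covariate. The first 2 member medians were 0.55 and -0.68 with limma on log2(FPKM + 1), beside 0.29 and -0.34 over all genes. With a pseudocount of 0.1 they were 0.68 and -0.79, beside 0.42 and -0.51. When genes opposite another gene were left out they were 0.010 and -0.064. With the covariate they were 0.027 and -0.13, beside 0.07 and -0.10. TMM factors from genes lacking an opposite-strand gene, chosen after seeing the data, gave 0.0017 and -0.028, beside -0.23 and 0.23. With genes opposite another gene left out, the medians over all genes fitted were -0.006 and -0.001. The causes were not tested.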
